A study of Mus musculus with 4 samples.

Results

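Accessible chromatin was described at 10 genes of Slit, Robo and netrin signalling in sorted cells of the embryonic mouse palate. The genes are 5 ligands (Slit1, Slit2, Slit3, Ntn1 and Ntn4) and 5 receptors (Robo1, Robo2, Unc5b, Unc5c and Dcc). Peaks of 4 ATAC-seq libraries that shared at least 1 bp were merged into regions, and a region was given to the protein-coding gene nearest to its midpoint within 100 kb. Of 39843 regions in all, 99 went to these 10 genes. ATAC-seq marks open DNA by the insertion of adapters with a transposase. The cells were GFP-positive palatal mesenchyme of E14.5 embryos. The 2 control libraries were Shox2Cre/+;Nkx2.5F/F;R26RmTmG and the 2 mutant libraries Shox2Cre/-;Nkx2.5F/F;R26RmTmG, with 50000 pooled cells per group. R26RmTmG switches a membrane reporter to green where Cre has acted, so the sort took descendants of cells that had expressed Cre from Shox2. Both genotypes carry the floxed Nkx2.5 alleles and the Shox2Cre allele, so the genotypes differ by the label in the second Shox2 allele, + in controls and - in mutants. Nothing in the labels says that libraries of a genotype came from separate pools, so the spread between them may be technical.

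Slits are large secreted proteins that bind Robo receptors and commonly repel growing axons and migrating cells. Netrins are secreted, laminin-related proteins that attract through Dcc and repel where Unc5 receptors take part. Both families also act outside the nervous system, in blood vessels, heart and branching epithelia, and several of their genes are expressed in mesenchyme.

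The 4 lists held 30239 and 22966 peaks in controls 1 and 2 and 29225 and 31832 in mutants 1 and 2, and read depth is unknown. The unit used below is the percentile, the rank of a peak's deposited score among all peaks of its own list, from 0 for the weakest to 100 for the strongest. Control 2, the shortest list, gave the lowest median percentile over the 18904 regions held by all libraries (58.8, against 67.6 to 70.2 in the others), and its percentiles bear on every comparison of genotypes below. Of 6 palate mesenchyme marker genes, 2 (Osr2 and Twist1) had a promoter region held by all libraries, 2 by some (Prrx1 by 3 libraries, Alx4 by both controls only), and 2 (Pdgfra and Shox2) had none. Shox2 itself had 3 regions, none held by all libraries, so the lists do not check its genotype. Promoter regions held by all libraries were also present at 3 of 6 neuron, 3 of 5 Schwann and glial, 2 of 5 epithelial, 1 of 5 endothelial, 1 of 4 blood and 0 of 4 skeletal muscle markers, so peak presence at promoters does not by itself name the cell type. Regions at the neuron markers numbered 5.62 and 4.35 per 10000 peaks in the controls, against 4.79 and 5.65 in the mutant lists. Their part in the values below was not tested. In sorted pools, fewer cells of a type and less accessibility per cell cannot be told apart.

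The starts of these genes differ in base composition, which is shown first because several results concern them. The table of RefSeq promoters (GRCm38.p6, the build also named mm10) listed starts for 7 of the 10 genes, with 3 starts for Robo2, and none for Slit1, Ntn1 and Dcc. The 150 bases before each start are given 5′ to 3′ for the genes whose promoter regions ranked higher in both mutants and for the starts that were called in some libraries only. Capitals mark matches to any motif searched.
Slit2 (chr5:47983005-47983154, + strand): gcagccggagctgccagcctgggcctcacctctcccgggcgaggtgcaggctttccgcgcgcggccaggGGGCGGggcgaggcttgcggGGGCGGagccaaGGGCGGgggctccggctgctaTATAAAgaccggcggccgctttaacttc
Ntn4 (chr10:93640899-93641048, + strand): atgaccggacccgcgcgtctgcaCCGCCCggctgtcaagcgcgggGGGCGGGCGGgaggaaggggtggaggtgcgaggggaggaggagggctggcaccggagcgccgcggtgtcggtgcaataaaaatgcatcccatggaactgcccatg
Unc5c (chr3:141465414-141465563, + strand): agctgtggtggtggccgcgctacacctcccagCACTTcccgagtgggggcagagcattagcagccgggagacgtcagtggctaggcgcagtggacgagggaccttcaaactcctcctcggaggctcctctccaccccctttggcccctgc
Robo1 (chr16:72662999-72663148, + strand): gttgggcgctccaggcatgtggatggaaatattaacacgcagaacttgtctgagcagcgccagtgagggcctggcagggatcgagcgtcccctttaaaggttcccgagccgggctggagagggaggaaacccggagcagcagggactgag
Robo2 first start (chr16:75447294-75447443, - strand): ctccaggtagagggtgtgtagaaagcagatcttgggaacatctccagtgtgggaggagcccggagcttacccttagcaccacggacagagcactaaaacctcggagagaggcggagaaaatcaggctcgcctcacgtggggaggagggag
Robo2 middle start (chr16:75092771-75092920, - strand): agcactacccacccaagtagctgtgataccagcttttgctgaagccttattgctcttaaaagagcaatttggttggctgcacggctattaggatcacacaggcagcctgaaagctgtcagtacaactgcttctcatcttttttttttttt
Robo2 last start (chr16:74411826-74411975, - strand): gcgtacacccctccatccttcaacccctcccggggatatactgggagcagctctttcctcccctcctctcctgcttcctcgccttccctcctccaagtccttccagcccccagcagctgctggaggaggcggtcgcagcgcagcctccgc

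The motifs searched on both strands of the 250 bases before each start were TAATTA (homeodomain), the palindromic paired-class homeodomain dimer with a spacer of 3 bases, AAGTG (NK2 homeodomain core), TGANTCA (AP-1), the GC box GGGCGG and, as the core promoter element, TATAAA. Matches of the GC box overlap each other in Ntn4 and Slit3, and no match overlaps another motif. GC boxes were found before 4 of the 9 starts, those of Slit2, Slit3, Ntn4 and Unc5b, against 32.7% of 32851 listed promoters. Slit2 alone held TATAAA, beginning at position -28 from the start (12.4% of promoters), and Unc5c alone held AAGTG (40.7%). TAATTA (4.84% of promoters), the dimer (0.463%) and the AP-1 motif (6.75%) matched none of the 9. CpG dinucleotides in the 250 bases numbered 35 at Slit3, 27 at Unc5b, 26 at Ntn4, 25 at Slit2 and 23 at Unc5c. They numbered 11 at Robo1 and 8, 4 and 14 at the first, middle and last starts of Robo2, where the median of all promoters was 6. A match describes letters in this window and not a bound site.

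Slit2 and Slit3 were the ligand genes with the most regions, while Slit1 had almost none. Slit1 (chromosome 19, 41597824 to 41747275) had 1 region, held by control 1 alone at percentile 11.8, and 0 promoter regions. Slit2 (chromosome 5, 47981291 to 48307735) had 9 regions, of which 3 were held by all libraries. Its promoter region (chromosome 5, 47982746 to 47984650), the strongest of the gene, stood at percentiles 55.9 and 59.2 in controls 1 and 2 and 78.1 and 73.1 in mutants 1 and 2. The genotypes did not overlap there, with a difference of 18.1 points (exact permutation p = 0.33). With 2 libraries against 2 that is the smallest two-sided p possible, and it applies to every non-overlapping region below. The Slit2 region 21.0 kb from the start gave 56.9, 58.3, 57.4 and 69.9 in the same order of libraries, and the genotypes overlapped.

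Slit3 (chromosome 11, 35121456 to 35708507) had 18 regions, the third most of the 10 genes, and 5 were held by all libraries. Its promoter region (chromosome 11, 35120704 to 35122030) lay at percentiles 71.7 and 74.2 in the controls, then 73.3 and 78.7 in the mutants. The libraries lay close together there and the genotypes overlapped. Its 4 other shared regions lay inside the gene, 83.0, 127.0, 161.8 and 286.4 kb from the start, and none of them separated the genotypes. The highest of these by a single library was the one at 161.8 kb, at 59.0 in control 1 but 13.3 in control 2, so libraries of 1 genotype differed more than the genotypes.

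The netrin ligands had few regions. Ntn1 (chromosome 11, 68209364 to 68386826), the founding attractant of the family, had 3. The region at a gene end (chromosome 11, 68385758 to 68387477) was held by 3 libraries, at 19.4 in control 1, 42.0 in mutant 1 and 6.13 in mutant 2. A region inside the gene (chromosome 11, 68341040 to 68342070) was held by all, at 72.0 and 45.2 in the controls, then 67.8 and 57.7 in the mutants. Ntn4 (chromosome 10, 93641049 to 93745972), a netrin of basement membranes, had 4 regions. Its promoter region (chromosome 10, 93640652 to 93642279) was called in control 2 at percentile 0.490 and in mutant 1 at 30.9, and in no other library. The only Ntn4 region held by all libraries lay inside the gene (chromosome 10, 93741221 to 93742202). It stood at 31.4 and 29.7 in the controls, then 43.1 and 53.4 in the mutants, without overlap.

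**Figure D1:**
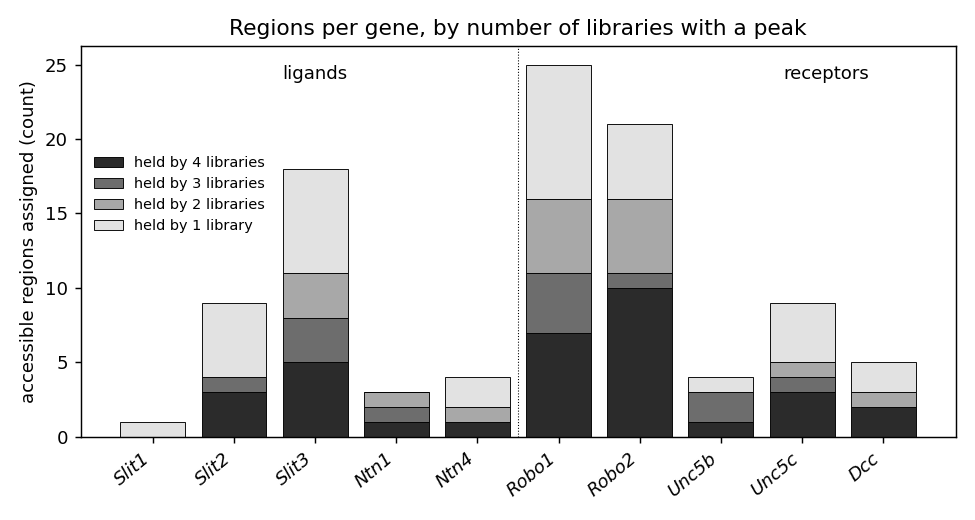
Number of accessible regions assigned to each gene (vertical axis, count), split by how many of the 4 libraries held a peak in the region, with ligand genes left of the dotted line and receptor genes right of it. Robo1 with 25 and Robo2 with 21 regions stand highest, and Slit1 has 1.

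Robo1 and Robo2, receptors for Slits, held 46 of the 99 regions between them. They lie on opposite strands of chromosome 16, 844.5 kb apart, and span 1020.0 and 1555.5 kb. The median protein-coding gene had 1 region. Robo1 with 25 regions had more than 99.97% of genes, and Robo2 with 21 more than 99.89%. Per 100 kb of gene length the counts were 2.45 and 1.35, against 3.07 at Slit3 and 5.80 at Unc5b, so the order by density is not the order by count. The counts include regions outside the gene, 4 at Slit3 and 1 each at Robo1, Robo2 and Unc5b, which raises the density of Slit3 in particular.

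The Robo1 promoter region (chromosome 16, 72662784 to 72664064) was the strongest of all 99, at 89.5 and 90.6 in the controls, then 91.3 and 92.5 in the mutants. The genotypes did not overlap, and their means differed by 1.81 points. A second strong Robo1 region (chromosome 16, 72027413 to 72029490) covers the annotated 5′ limit of the Robo1 gene. Its midpoint lies 634.7 kb before the listed start, and it counts as distal here because the promoter table lists 1 start for Robo1. It stood at 61.0 and 62.2 in the controls, then 76.5 in both mutants, again without overlap. The Robo1 region inside the gene at 72349933 to 72351015 gave 70.3 and 49.3 in the controls, then 69.8 and 86.4 in the mutants, which overlapped.

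Robo2 had the most regions held by all libraries, 10 of its 21, and 6 of these 10 ranked higher in both mutants, against 29.1% of shared regions over the series. Of these 6, 5 also did so with ranks among shared regions only and 4 by the rank of fold enrichment. Its first start (region on chromosome 16, 75446961 to 75447813) was at 79.2 and 81.7 in the controls, then 87.5 and 88.6 in the mutants. Its last start (74410974 to 74413385) was at 77.1 and 67.1 in the controls, then 79.1 and 80.7 in the mutants. The middle start (75091739 to 75093437) was called at 16.4 in control 2, 23.1 in mutant 1 and 52.1 in mutant 2 and not in control 1. Thus 2 of the 3 starts were among the stronger regions of every library and the third was not.

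The 3 largest rank differences of the 10 genes were all Robo2 regions inside the gene. The first (chromosome 16, 74134860 to 74135581) was at 23.5 and 14.8 in the controls, then 50.3 and 42.3 in the mutants, a difference of 27.2 points. The second (74092825 to 74094085) was at 34.2 and 14.3 against 53.1 and 48.3, a difference of 26.5. The third (74806713 to 74807599) was at 58.5 and 32.2 against 67.1 and 67.3, a difference of 21.9. In each of them control 2 was the lowest library and both mutants lay above control 1. Nearby regions of the same gene did not follow: the one at 74801079 to 74801873 had control 2 highest, at 60.5, and that at 74820783 to 74821890 had mutant 1 lowest, at 21.9.

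**Figure D2:**
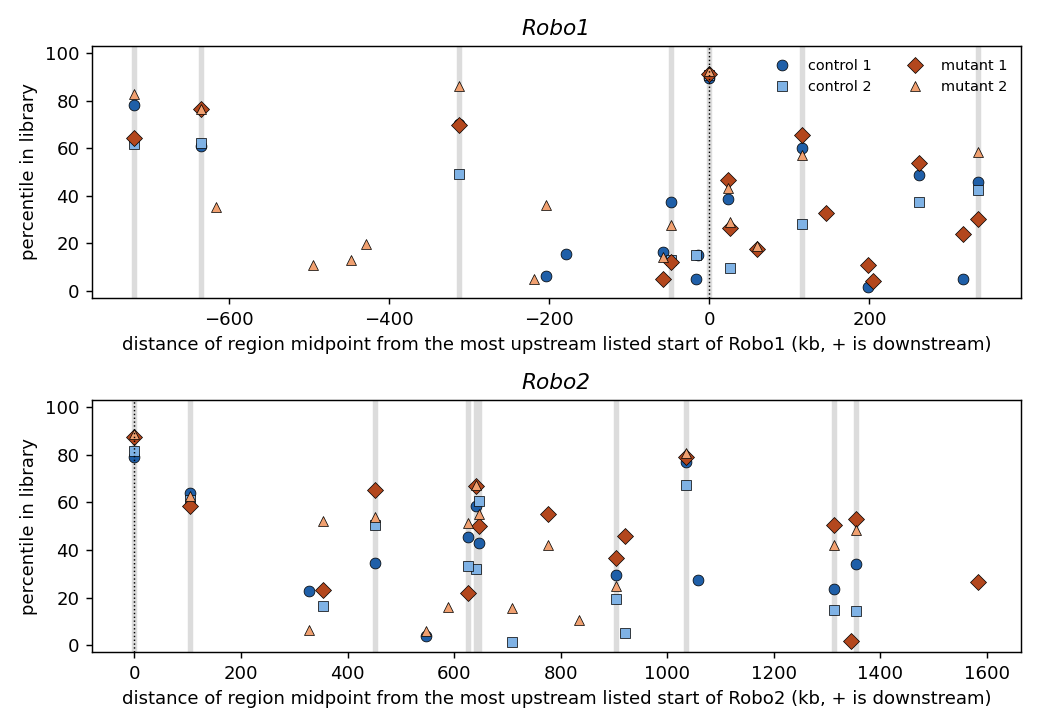
Percentile of each region (vertical axis, 0 to 100 within each library) against the distance of its midpoint from the most upstream listed start (horizontal axis, kb) at Robo1 and Robo2, with 1 marker per library that held the region and grey lines at regions held by all 4. At Robo1 the 4 libraries meet near 90 at the start, while at Robo2 the mutant markers lie above the control markers at 6 of the 10 grey lines.

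Unc5b, Unc5c and Dcc are netrin receptors with fewer regions. Unc5b (chromosome 10, 60762594 to 60831581), which is also known from endothelial cells, had 4. Its promoter region (60830830 to 60832019) was at 86.3 and 74.1 in the controls, then 83.7 and 85.1 in the mutants, which overlapped. Unc5c (chromosome 3, 141465564 to 141834924) had 9 regions. Its promoter region (141464632 to 141466528) was at 59.3 and 67.1 in the controls, then 77.4 and 83.7 in the mutants, a difference of 17.4 points without overlap. Its strongest region lay 291.9 kb inside the gene (141756691 to 141758290), at 88.7 and 78.3 in the controls, then 82.9 and 86.4 in the mutants, and did not separate the genotypes. Dcc (chromosome 18, 71253613 to 72351228), over 1097.6 kb, had 5 regions, or 0.456 per 100 kb, the lowest density of the 10 genes. The region at its gene end (72350179 to 72351465) lay near the middle of every list, at 50.8 and 49.9 in the controls, then 58.8 and 40.6 in the mutants. A Dcc region inside the gene (71744328 to 71745177) was at 49.8 and 35.4 in the controls, then 61.5 and 53.5 in the mutants, without overlap.

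**Figure D3:**
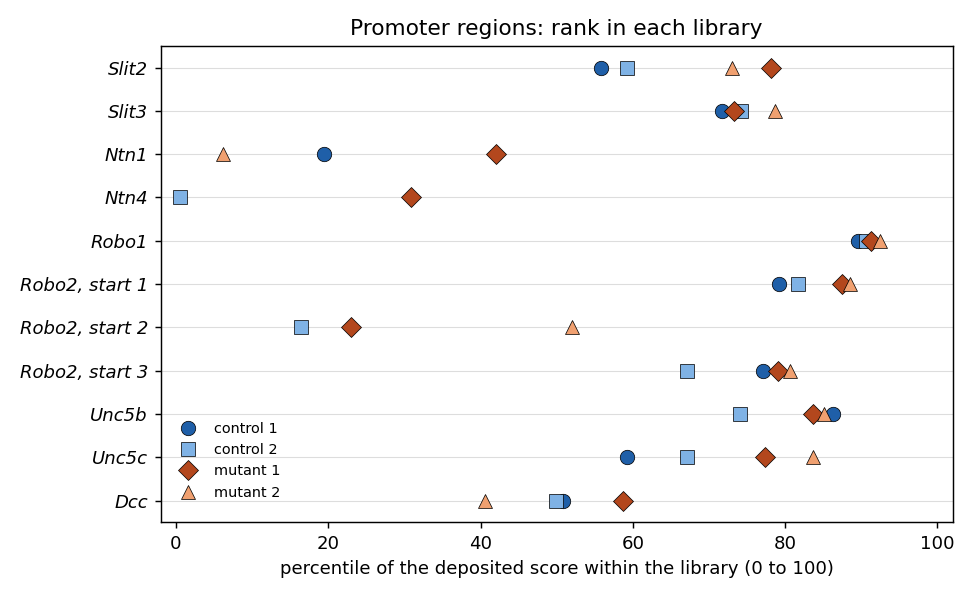
Percentile of the 11 promoter regions in each library (horizontal axis, 0 to 100), 1 row per start and 1 marker per library that held the region. Among the 8 starts held by all 4 libraries, Slit2 and Unc5c have the largest differences of genotype means, Robo1 lies near 90 in all 4 libraries, and Ntn1, Ntn4 and the middle Robo2 start lack a marker in at least 1 library.

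Promoter and distal regions differed in how many libraries held them. A promoter region has its midpoint within 1 kb of a listed start, or of a gene end where no start is listed, and all others are distal. There were 11 promoter regions, of which 8 (72.7%) were held by all libraries, and 88 distal ones, of which 25 (28.4%) were. Over all genes these shares were 85.2% and 31.2%. Of the 88 distal regions 79 lay inside the gene and 9 outside, and the gene table does not separate exons from introns. All 36 regions held by a single library were distal. Among regions held by all libraries, the median of the mean percentile was 75.2 at promoters and 50.1 at distal regions, a difference of 25.2 points. The difference was 28.6, 35.2, 25.5 and 28.5 in controls 1 and 2 and mutants 1 and 2, and over all genes it was 25.6. This order turned when peaks were ranked by the deposited fold enrichment in place of the score, to 43.6 at promoters and 60.3 at distal regions, while over all genes promoters stayed higher (73.1 against 53.5). The Slit2 promoter region, 1905 bp wide, had fold enrichments of only 4.17 and 4.49 in the controls, then 5.66 and 4.96 in the mutants, against 12.2 and 13.0, and 13.8 and 13.3, at the 853 bp region of the first Robo2 start.

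All 11 promoter regions covered the start or gene end they were assigned by, and the summit, the base where the authors' caller placed the top of a peak, was reproducible at some starts. At Unc5b it lay 43 to 66 bp after the start in the 4 libraries, and at the last Robo2 start 124 to 143 bp after it. At Slit3 the 4 summits lay before the start, at -330 to -304 bp. At Slit2 they were spread from -100 to 43 bp and at Unc5c from -167 to -25 bp.

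Receptor regions had a higher median rank than ligand regions, but the order did not hold gene by gene. The 5 receptors had 64 regions, 23 of them (35.9%) held by all libraries, and the 5 ligands had 35, with 10 (28.6%) held by all. Both shares lay below the 47.4% of all regions in the series. Among distal regions they were 29.8% and 25.8%, against 31.2% over all genes. The medians of the mean percentile were 55.8 and 38.8, a difference of 16.9 points, with 13.4, 16.3, 19.9 and 7.93 in controls 1 and 2 and mutants 1 and 2. The difference was 8.91 points with equal numbers of top peaks per library, 9.45 in the upper 50% of each list and 33.1 by the rank of fold enrichment. Distal regions alone gave 16.1 points, from 17 receptor and 8 ligand regions. Their medians were 52.2 and 36.0, against 51.6 for distal regions of all genes. The 6 shared receptor regions outside Robo1 and Robo2 had a median of 63.8. The regions of a gene share a locus and are not replicates, so no test was made between the roles, and 5 of the 10 ligand regions belong to Slit3.

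**Figure D4:**
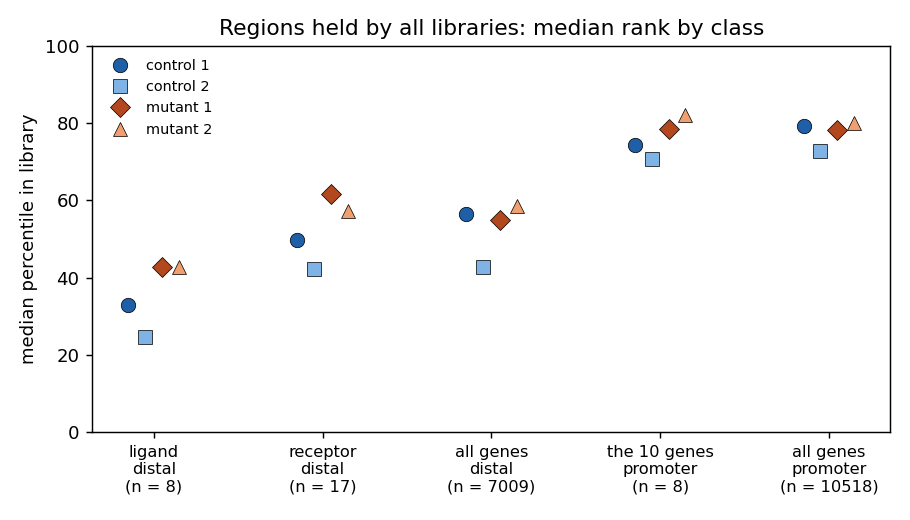
Median percentile in each library (vertical axis) over regions held by all 4 libraries, for distal regions of the 5 ligand genes, of the 5 receptor genes and of all genes, and for promoter regions of the 10 genes and of all genes, with the number of regions under each label. Ligand distal regions are lowest in each library, and promoter regions of the 10 genes lie near those of all genes.

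Between genotypes, the shared regions of these genes tended to rank higher in the mutants, as did regions in general. Both mutants ranked above both controls in 13 of the 33 regions held by all libraries, against 29.1% of 18904 regions over the series. Both controls ranked above both mutants in 0 of 33, against 5.62%. The 13 were 6 of Robo2, 2 each of Robo1 and Unc5c, and 1 each of Slit2, Ntn4 and Dcc. By role they were 11 of 23 receptor and 2 of 10 ligand regions. By place they were 5 of 8 promoter regions (27.5% over the series) and 8 of 25 distal regions (29.6%). Without Robo2, both mutants ranked above both controls in 7 of 23 regions (30.4%). Without Robo1 and Robo2 they did so in 5 of 16 (31.25%), and both shares lie near the 29.1% of the series. The median difference, mutant minus control, was 6.97 points over the 33 regions and 3.29 over all shared regions. It was 6.02 points without Robo2 and 6.50 without Robo1 and Robo2.

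These counts depend on how ranks are set. Ranked by fold enrichment, 15 of the 33 were higher in both mutants and 1 in both controls, against 25.9% and 9.32% over the series, with a median difference of 9.13 points against 2.62 for all. When ranks were taken among the 18904 shared regions only, so that each library ranks the same set, 17.6% of them ranked higher in both mutants and 18.0% in both controls, and the 10 genes had 11 and 2 of 33. The median difference was then 1.34 points, against -0.0225 for all. Of the 13 regions, 10 also separated by this rank and 11 by the rank of fold enrichment, 9 by both. The Slit2 promoter stayed apart among shared regions, at 30.9 and 50.5 in the controls, then 66.2 and 54.7 in the mutants, and so did the Unc5c promoter, at 35.7 and 60.0 against 65.0 and 72.5. The Robo1 promoter did not, at 83.3 and 88.6 against 86.5 and 87.3. Of the 6 Robo2 regions 5 stayed apart, and 1 other Robo2 region and 1 of Robo1 then ranked higher in both controls. With 1 library left out fewer values have to separate, and each count below exceeds that with all 4. Without control 2 both mutants were above control 1 in 19 of 38 regions and below it in 8, against 34.1% and 32.1% over the series. Without control 1 the counts were 26 and 1 of 37, against 70.9% and 8.98%. Without mutant 1 they were 22 and 3 of 36 (52.5% and 12.0%), and without mutant 2 they were 19 and 4 of 34 (40.3% and 18.3%).

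**Figure D5:**
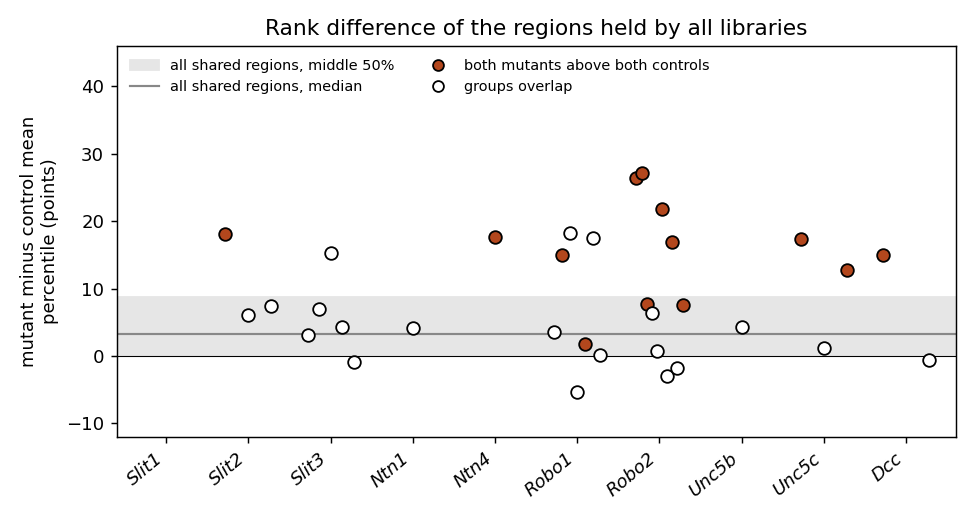
Difference of mean percentile, mutant minus control (vertical axis, points), for the 33 regions held by all libraries, grouped by gene and filled where both mutants ranked above both controls, with the median (line) and middle 50% (grey band) of all 18904 shared regions. The 3 highest points, above 20, are Robo2 regions, and Slit1 has no point because its region was held by 1 library.

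Regions called in 1 genotype only were few. Mutant-only regions, with peaks in both mutants and neither control, numbered 5 of 99, against 4.47% of all regions, and control-only regions 1 of 99, against 1.07%. The share of mutant-only regions is thus near that of the series. The mutant-only region of Robo2 (chromosome 16, 74671304 to 74671945) was the highest of them, at 55.0 in mutant 1 and 42.1 in mutant 2. That of Dcc (chromosome 18, 71347791 to 71348673) was at 29.1 and 27.6, and that of Robo1 (chromosome 16, 72721816 to 72722714) at 17.6 and 19.1. Those of Ntn1 (chromosome 11, 68399714 to 68400935), 13.5 kb outside the gene, and of Slit3 (chromosome 11, 35451567 to 35452843) were at 14.0 and 7.11 and at 2.88 and 7.43. The control-only region lay in Robo1 (chromosome 16, 72645747 to 72646381), 17.1 kb before the listed start, at 5.06 and 15.2. With equal numbers of top peaks from each library, 1 mutant-only and 1 control-only region were left of 61, against 2.38% and 2.14% of all regions. Without control 1, mutant-only regions numbered 10 and control-only regions 1 of 92, against 13.9% and 2.81% over the series. Without control 2 they numbered 9 and 8 of 99 (6.34% and 8.45%). Without mutant 1 they numbered 24 and 2 of 89 (14.7% and 2.61%), and without mutant 2 they numbered 15 and 4 of 80 (11.4% and 3.69%).

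A missing call at these regions does not show that no peak was there, since the lists are incomplete. The deposited peak names carry running numbers in genome order, and in each library only 23.8% to 27.8% of the numbers are listed. In all 12 places where a library lacked 1 of these 6 regions, at least 2 peak numbers were skipped between the listed neighbours, in gaps of 44.4 to 982.4 kb. At the Robo1 control-only region the gap held 6 skipped numbers in mutant 1 and 5 in mutant 2, and at the Ntn1 mutant-only region 2 in control 1 and 7 in control 2. Whether an unlisted peak lay in the region cannot be read from the lists.

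The libraries held different numbers of the 99 regions, 57 and 46 in controls 1 and 2 and 64 and 74 in mutants 1 and 2. Per 10000 listed peaks these were 18.8 and 20.03 against 21.9 and 23.2, and the genotypes did not overlap (exact permutation p = 0.33). Distal regions of all genes numbered 5053 and 4287 against 4880 and 5090 per 10000 in the same order, which overlapped. Both mutants were also higher at other netrins, other netrin receptors, epithelial markers and blood markers. At other netrin receptors the values were 2.65 and 2.61 against 3.42 and 3.46. Both controls were higher at other Robo receptors, at 0.992 and 1.31 against 0.684 and 0.942. The genotypes overlapped at the remaining groups of pathway and marker genes. Such separation is thus not particular to these genes, and its frequency over gene sets at large was not counted. Mutant 2, the longest list, held 19 of the 36 regions found in a single library (52.8%), where it held 39.1% of such regions over the series, and 9 of its 19 were at ligand genes. Control 2 held 0 of the 36, and only 6.39% of such regions over the series.

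Other genes of the pathway were counted as a fixed list of 33. A promoter region held by all libraries was present at 26 of them, Unc5a had one in mutant 2 alone, and Robo3, Robo4, Ntn5, Ntng2, Flrt2 and Draxin had none. Robo4, an endothelial Robo, and Ntn5 had 0 regions of any kind. The 3 strongest promoters by mean percentile were those of Srgap2, a Slit-Robo GTPase activating protein gene (99.8 to 99.9 in the 4 libraries), Fyn, a kinase used by Dcc (95.7 to 98.8), and Flrt3, a Robo and Unc5 binding protein gene (96.4 to 98.2). The promoter of Unc5d, another Unc5 receptor, was at 94.1 to 94.8, above that of Unc5b and Unc5c in every library. Of 56 shared regions at the 33 genes, 25 ranked higher in both mutants and 1, of Srgap2, in both controls, against 29.1% and 5.62% over the series. That Srgap2 region is its promoter, at the top of every list. It stood at 99.889 and 99.911 in the controls, then 99.827 and 99.888 in the mutants, so the separation is very small. With ranks among shared regions only the counts were 14 and 6, against 17.6% and 18.0%, and by fold enrichment they were 17 and 2, against 25.9% and 9.32%. By group, and by the score within the whole list, the counts higher in both mutants were 1 of 2 at other Robo receptors, 3 of 4 at other netrins, 3 of 4 at other netrin receptors, 3 of 8 at Slit-Robo GTPase activating proteins, 7 of 19 at intracellular effectors and 8 of 19 at surface partners. Mutant-only regions numbered 11 and control-only regions 0 of 136, against 4.47% and 1.07% of all regions.

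At the limit of 100 kb, the farthest regions inside were that of Robo1 at 82.4 kb (chromosome 16, 71944625 to 71945546), held by all libraries at 78.3, 61.7, 64.5 and 82.6 in controls 1 and 2 and mutants 1 and 2, and that of Slit3 at 68.0 kb, in mutant 2 at 3.19. The nearest outside were 2 regions 109.3 and 114.4 kb from Slit3, the first in control 1 at 10.8 and mutant 2 at 11.5, the second in control 1 at 7.11.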

How the data were processed

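The authors deposited 1 peak list per library in a layout of 10 columns, in mm10 according to the submitters' processing notes. No source used here gives the aligner, caller, read offset or the reason why peak numbers are skipped. The score deposited by the authors equals 10 times the deposited −log10 p-value, rounded down, in 99.99% to 100% of peaks. The deposited fold enrichment is a ratio to a background that is not stated. These values belong to single peaks and were used only as ranks within a list or as descriptions.

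Peaks on the autosomes and X entered the merging (7 to 14 peaks per list lay on Y). Python 3.11.15, pandas 2.3.3 and numpy 2.4.6 were used, with gene limits and promoters of GRCm38.p6 from RefSeq. Starts were listed for 17273 of 21627 protein-coding genes, and gene ends stood in for the others. Where a library had several peaks in a region the highest counted. Libraries were grouped by the strain labels. A region separated the genotypes where both libraries of one ranked above both of the other, with a two-sided exact permutation over the 4 libraries. Merging, assignment and calls were tested on simulated lists. Alternatives were stricter or equal lists, other distances and overlap, rank by fold enrichment, each library left out and a replicate block. Ranks among shared regions and promoters by any gene end were added after the data were seen. Members, gene lists and alternatives were chosen with earlier results of these data known. The rule for named regions took all promoter regions, the strongest shared region of each gene, every genotype-specific region, and the 3 largest non-overlapping differences per direction. Other regions were picked after their values were seen.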

Additional observations from a re-analysis of the deposited data

How the results depend on the processing

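Of 75 recomputed values for 8 results, 45 stayed near the reported value. For percentile differences this meant a change under the standard deviation over the 4 libraries, both genotypes together. For counts it meant a factor of at most 1.5. The stronger 50% of peaks gave 32 regions at the 10 genes, 12 held by all libraries, 1 mutant-only, 0 control-only and 6 ranked higher in both mutants; receptors exceeded ligands by 9.45 points and promoters exceeded distal regions by 6.97. With 22966 top peaks per library, fewer where scores tied, there were 61 regions, 1 mutant-only region and a receptor excess of 8.91 points. Ranking by fold enrichment gave 33.1 points for receptors over ligands, -16.7 for promoters over distal regions and 1 region higher in both controls. Ranks among shared regions, chosen after the data were seen, gave 2 regions higher in both controls and 34.9 points for promoters over distal regions. The cause of these shifts was not tested. The stricter and equal lists hold fewer peaks by design.

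Leaving out 1 library in turn gave 80 to 99 regions, 34 to 38 held by all, 9 to 24 mutant-only, 1 to 8 control-only, 19 to 26 higher in both mutants, 1 to 8 higher in both controls, 12.6 to 20.8 points for receptors over ligands and 25.9 to 32.8 for promoters over distal regions. Fewer libraries then have to agree. The replicate numbers are not shown to pair the libraries: the correlation of control 1 minus control 2 with mutant 1 minus mutant 2 over 18904 shared regions was -0.0316. With the replicate block, 19 regions were higher in both same-numbered mutants and 0 lower, against 38.4% and 8.96% over the series. Calls are limited by read depth, which the lists do not give.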

Other observations

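Slit2 and Slit3 each contain a copy of the miR-218 hairpin in their gene span, and neither copy lay under a region. The hairpin in Slit2 (chromosome 5, 48223942 to 48224051) was 13.7 kb from the nearest region, which control 1 alone held. The hairpin in Slit3 (chromosome 11, 35616816 to 35616925) was 10.9 kb from the nearest region, which 3 libraries held.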
